A study of Mus musculus with 16 samples.

Results

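The comparison described here is between the inguinal white adipose tissue (iWAT) of SOD1G93A mice and that of WT mice, chosen by genotype label and covering 8 of the 16 libraries of the series, 4 from each genotype. WT mice carried neither mutation. SOD1G93A mice carried a human SOD1 transgene with the G93A change, in the high-copy line B6.Cg-Tg(SOD1-G93A)1Gur/J, which is 1 transgenic line and a model of amyotrophic lateral sclerosis (ALS). All mice were labelled female, C57BL/6 and 90 days old, an early symptomatic age in this line, and came from crosses of Lepob/+ females with SOD1G93A males. The other 8 libraries, Lepob/+ (1 copy of the ob allele of Lep) and SOD1G93A-Lepob/+ (both mutations), entered the fit for the estimate of the spread and were not compared here. Each library was made from RNA of dissected fat and sequenced, and the deposited values were raw read counts per gene.

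Inguinal fat is the subcutaneous pad of the groin, which stores triglyceride, secretes hormones such as leptin and adiponectin and can form beige adipocytes that burn fuel through the uncoupling protein Ucp1. The fat cells sit among vessels, nerves, fibroblast-like progenitors and macrophages, and in female mice among mammary ducts. An inguinal lymph node lies inside the pad, and abdominal wall muscle lies beneath it. In ALS models motor neuron loss goes together with altered energy use, so the question here is which metabolic, thermogenic, stress and stromal genes differed in this fat at this age.

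The adipocyte identity of the tissue was clear in all 8 libraries: Adipoq, the gene of adiponectin, lay at 1473 to 2973 CPM in WT and at 1262 to 3262 CPM in SOD1G93A, where CPM are counts relative to the library's total as scaled by edgeR's TMM method. Total counts were 43840953, 39423524, 39674105 and 37166103 in WT replicates 1 to 4 and 43903692, 41255050, 61886313 and 40394281 in SOD1G93A replicates 1 to 4. Xist had 17910 to 28034 counts in the 8 libraries and 4 genes of the Y chromosome had 0, while the library labelled SOD1G93A-Lepob/+ replicate 3, which took part in the shared fit, had 0 Xist counts and 1756 counts of the Y genes. With edgeR fitted on the 8 libraries alone, 0 genes were called, and 444 had an unadjusted p under 0.05. Mouse Sod1 lay at 354 to 497 CPM in WT and at 299 to 446 CPM in SOD1G93A, which does not check the label, since the transgene is human.

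The libraries differed in how much lymph node they held. The 18 T cell genes had a mean log2 CPM of 5.94, 5.52, 0.04 and 1.00 in WT replicates 1 to 4 and of 5.92, 6.52, -0.32 and 5.74 in SOD1G93A replicates 1 to 4. WT replicates 1 and 2 and SOD1G93A replicates 1, 2 and 4 were therefore treated as holding lymph node RNA (T cell mean over 3), against WT replicates 3 and 4 and SOD1G93A replicate 3. The 8 genes of node stroma and its high endothelial venules, as a summed level, followed the same division, at 502 to 1076 CPM in the first set and 5.17 to 18.7 CPM in the second. Skeletal muscle genes (21 measured) had a mean log2 CPM of 6.85 in WT replicate 3, 2.96 and 3.24 in SOD1G93A replicates 2 and 4, and -0.51 or less in the other 5. Summed macrophage genes (19) ranged from 1608 to 7027 CPM in WT and from 2080 to 3427 CPM in SOD1G93A.

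**Figure D1:**
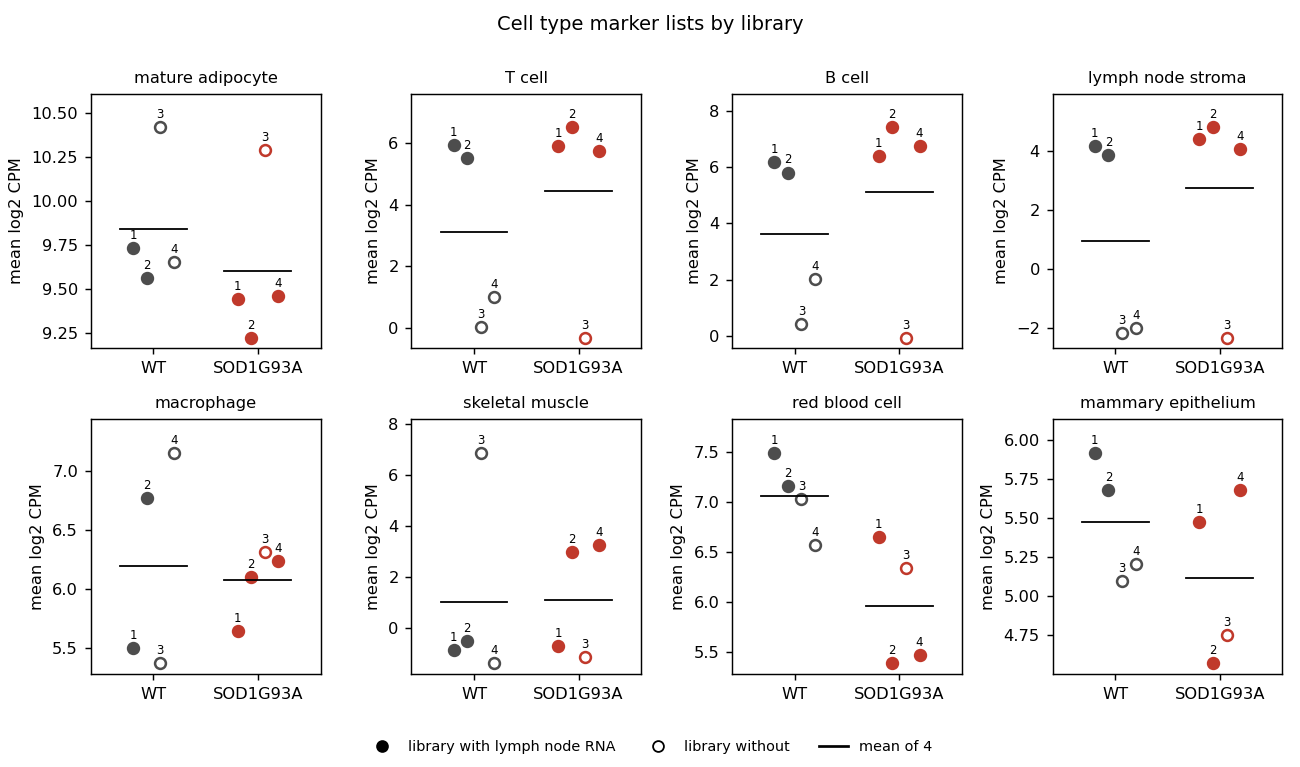
Mean log2 CPM (y axis) of 8 lists of cell type markers in the 4 WT and 4 SOD1G93A libraries, with the replicate number at each point, filled points for libraries with lymph node RNA and a line at the mean of 4. Markers of node stroma, T cells and B cells separate the same 5 filled points from the 3 open ones, and skeletal muscle markers are highest in WT replicate 3.

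Across the whole transcriptome no gene differed between SOD1G93A and WT in edgeR's quasi-likelihood test, fitted on the 16 libraries with Benjamini-Hochberg adjustment over 19736 genes: 0 were called (0% of those tested), and the smallest adjusted p was 0.998. At an unadjusted p under 0.05 there were 324 genes higher in SOD1G93A (1.64% of those tested) and 181 lower (0.917%). Together they were fewer than the share of 0.05 that this threshold passes when no gene differs. In 270 genes all 4 SOD1G93A libraries lay above all 4 WT libraries (1.37%), and in 135 they lay below (0.684%). When libraries were scaled to the mature adipocyte genes instead, the split at an unadjusted p was 176 higher and 34 lower, and the median log2 fold change of all genes moved from 0.02 to 0.26. With edgeR on the 8 libraries it was 152 higher and 292 lower, and DESeq2 on the same libraries called 14 genes, described further on. Counts of genes above and below 0 therefore depend on the scale: with the adipocyte scale 11 of 20 mature adipocyte genes, 11 of 22 progenitor genes and 40 of 40 oxidative phosphorylation genes lay above 0. Lists are described beside the median of all genes for this reason. No list that lay more than 0.02 from it changed sides with the adipocyte scale. A change of scale moves all genes by nearly the same amount, so this could hardly have come out otherwise and tests no list. For every gene given in the report with an edgeR test on the 16 libraries, the adjusted p was 0.998 or above. Log2 fold changes are of SOD1G93A over WT, and where 2 values stand alone in brackets they are the log2 fold change and its standard error.

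**Figure D2:**
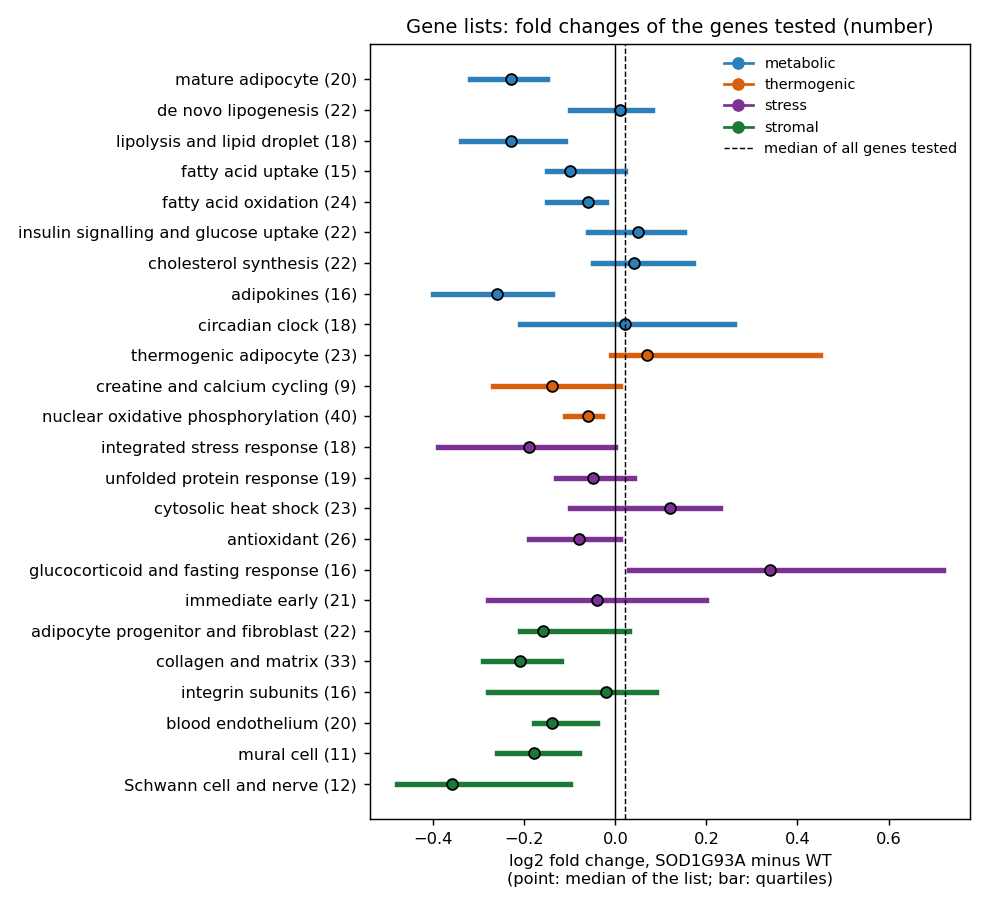
Median (point) and quartiles (bar) of the log2 fold change of SOD1G93A minus WT (x axis) over the tested members of 24 gene lists (y axis, number tested in brackets), coloured by theme, with the median of all genes as a dashed line. The glucocorticoid and fasting response list has the highest median, 0.34, and the Schwann cell and nerve list the lowest, -0.36.

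Genes of mature adipocytes were level or slightly lower in SOD1G93A. Of 20 genes 18 had a log2 fold change below 0, the median was -0.23 against 0.02 for all genes, and 0 separated the genotypes. Without WT replicate 3 the median was -0.02, and without SOD1G93A replicate 3 it was -0.53. With lymph node stroma as a covariate it was -0.09, and with a factor for lymph node RNA it was -0.10. Adipoq lay at 1473, 1547, 2973 and 2086 CPM in WT replicates 1 to 4 and at 1428, 1262, 3262 and 1331 CPM in SOD1G93A replicates 1 to 4. The 3 SOD1G93A libraries with lymph node RNA lay below every WT library, and the fourth, replicate 3, was the highest of all 8. Adrb3, the beta-3 adrenergic receptor of adipocytes, had the largest difference of the list, with 534, 517, 733 and 429 CPM in WT and 416, 293, 490 and 257 CPM in SOD1G93A (log2 fold change -0.60, standard error 0.32, unadjusted p = 0.0828). Cidec, a lipid droplet fusion protein, lay at 1908, 1980, 2009 and 1392 CPM in WT and at 1222, 921, 2237 and 1143 CPM in SOD1G93A. In bulk RNA fewer adipocytes in the sample and less RNA per adipocyte cannot be told apart.

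The enzymes that make fatty acids from sugar varied more between mice than between genotypes. In de novo lipogenesis 12 of 22 genes were above 0 and 10 below, with a median log2 fold change of 0.01. Fasn, fatty acid synthase, lay at 13317, 3280, 16949 and 9676 CPM in WT replicates 1 to 4 and at 12105, 8287, 16428 and 8090 CPM in SOD1G93A (log2 fold change 0.06, standard error 0.74). Acly, which supplies cytosolic acetyl-CoA, had 1164, 220, 2082 and 1864 CPM in WT and 1822, 1181, 2192 and 1125 CPM in SOD1G93A. WT replicate 2 had the lowest level of both enzymes, and the SOD1G93A values lay within the WT range for Fasn.

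Lipolysis and lipid droplet genes were lower in 14 of 18 cases, with a median log2 fold change of -0.23. Abhd5, the activator of adipose triglyceride lipase, was the member with the smallest p, at 130, 110, 129 and 93.7 CPM in WT and 94.1, 63.9, 109 and 78.7 CPM in SOD1G93A (log2 fold change -0.42, standard error 0.18, unadjusted p = 0.0334). The groups overlapped, since SOD1G93A replicates 1 and 3 lay above WT replicate 4. Pnpla2, that lipase itself, differed by -0.43 (standard error 0.28) on the log2 scale, and Lipe, hormone-sensitive lipase, by -0.14 (0.24). The median of this list was 0.00 with the adipocyte scale, where that of all genes was 0.26.

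Genes for uptake and burning of fatty acids showed small differences. Fatty acid uptake had 5 of 15 genes above 0 (median -0.10), and fatty acid oxidation 5 of 24 (median -0.06). Without WT replicate 3, fatty acid oxidation had 17 of 24 above 0 (median 0.08). Slc27a1, a fatty acid transporter, lay at 1404, 1321, 1123 and 690 CPM in WT and at 822, 559, 1035 and 663 CPM in SOD1G93A (log2 fold change -0.56, standard error 0.34). Lpl, the lipoprotein lipase that frees fatty acids from circulating lipoproteins, differed by 0.04 (standard error 0.38) on the log2 scale, with 9326 CPM in SOD1G93A replicate 3 against 3623 to 3890 CPM in the other 3. Without that library its log2 fold change was -0.44. Ppara, a nuclear receptor that drives fatty acid oxidation, lay at 1.55, 1.23, 2.01 and 0.608 CPM in WT and at 4.9, 1.58, 2.37 and 2.52 CPM in SOD1G93A (log2 fold change 1.06, standard error 0.64, unadjusted p = 0.118).

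Among insulin signalling and glucose uptake genes, 13 of 22 were above 0 and the median was 0.05. Foxo1, a transcription factor that insulin keeps out of the nucleus, lay at 103, 98.4, 77 and 81 CPM in WT and at 102, 140, 138 and 112 CPM in SOD1G93A. SOD1G93A replicate 1 was just below WT replicate 1, and the other 3 were above all WT libraries (log2 fold change 0.45, standard error 0.17, unadjusted p = 0.0208). Pdpk1, a kinase that activates Akt, was the only member of this list whose groups did not overlap (4.55%, against 1.37% of all genes). It lay at 45.7 to 51.5 CPM in WT and 52.4 to 55.3 CPM in SOD1G93A, a 1.10-fold difference. Slc2a4, the insulin-responsive glucose transporter, differed by -0.13 on the log2 scale (standard error 0.46).

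Cholesterol synthesis genes were near the level of all genes, with 15 of 22 above 0 and a median of 0.04. Ebp, a sterol isomerase, lay at 41.5 to 44.3 CPM in WT and below that range in each SOD1G93A library, at 37.8 to 41 CPM (log2 fold change -0.13, standard error 0.11). It is 1 of 22 members (4.55%, against 0.684% of all genes). With the adipocyte scale this gene had a log2 fold change of 0.12, where the median of all genes was 0.26. Clock genes divided evenly, 9 of 18 above 0, with Per2, a clock repressor, at 24.4, 25.4, 36.2 and 20.9 CPM in WT and 23.2, 30.3, 74.3 and 37.9 CPM in SOD1G93A. Its log2 fold change was 0.63 (standard error 0.36, unadjusted p = 0.0967), and SOD1G93A replicate 3 held the highest value.

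Adipokines, the hormones of fat, were below 0 in 14 of 16 cases with a median of -0.26, and share Lep, Adipoq, Retn and Cfd with the adipocyte list. Without WT replicate 3 the count was 8 of 16 below 0 (median -0.02), and without SOD1G93A replicate 3 it was 15 (-0.63). It was 9 with lymph node stroma as a covariate (-0.01) and 9 with a factor for lymph node RNA (-0.03). Lep, the gene of leptin, lay at 208, 202, 681 and 633 CPM in WT and at 243, 307, 993 and 360 CPM in SOD1G93A (log2 fold change 0.14, standard error 0.59). WT replicates 3 and 4 and SOD1G93A replicate 3, the libraries without lymph node RNA, were the highest of their genotypes. Metrnl, a secreted protein linked to beige fat, lay at 24.7, 33.4, 34.6 and 63.8 CPM in WT and at 19.2, 18.4, 34.1 and 22.1 CPM in SOD1G93A (log2 fold change -0.73, standard error 0.32, unadjusted p = 0.0384). SOD1G93A replicate 3 overlapped with WT, and the other 3 lay below all WT libraries. Without WT replicate 4 the log2 fold change of Metrnl was -0.42.

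Among thermogenic genes Ucp1 had the largest fold difference, with wide spread between the SOD1G93A libraries. Ucp1 (ENSMUSG00000031710) lay at 2.56, 1.48, 1.94 and 3.25 CPM in WT replicates 1 to 4 and at 75.6, 7.23, 3.16 and 24.1 CPM in SOD1G93A replicates 1 to 4. SOD1G93A replicate 3 fell within the WT range, and replicates 1, 2 and 4 were above it. The log2 fold change was 3.56 with a standard error of 1.87 (edgeR, unadjusted p = 0.077), and DESeq2 on the 8 libraries called it (adjusted p = 0.0111). Outside this comparison, Lepob/+ replicate 3 had 313 CPM, which was the highest value of the 16 libraries. The 3 SOD1G93A libraries above the WT range were those with lymph node RNA, while WT replicates 1 and 2, whose T cell genes were at 5.94 and 5.52, had low Ucp1. Within the libraries with lymph node RNA the difference in mean log2 CPM was 3.59, and within the others it was 0.33. With a factor for lymph node RNA in the fit, which also takes in Lepob/+ replicate 3, the log2 fold change of Ucp1 was 0.85, and without SOD1G93A replicate 1 it was 2.3.

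The other genes of thermogenic fat showed smaller or no differences. Of the 25 genes on this list 23 were tested, 16 were above 0 and the median log2 fold change was 0.07. Cidea, a lipid droplet protein of brown and beige cells, lay at 31.1, 16.1, 40.5 and 14.8 CPM in WT and at 72.1, 26.5, 24.3 and 34.4 CPM in SOD1G93A (log2 fold change 0.62, standard error 0.87). Elovl3, a fatty acid elongase, lay at 0.264 to 0.865 CPM in WT and at 6.22, 0.7, 1.86 and 1.8 CPM in SOD1G93A (2.05, 1.45). Slc27a2, a fatty acyl-CoA synthetase, was the only one whose groups did not overlap (4.35% of the list, against 1.37% of all genes). It lay at 0.106 to 0.31 CPM in WT and 2.15, 0.565, 0.345 and 0.97 CPM in SOD1G93A (2.06, 1.37), all of them low. SOD1G93A replicate 1 was the highest of the 8 libraries for these 3 genes as for Ucp1. Ppargc1a, the coactivator of mitochondrial biogenesis, was level at 3.65 to 7.05 CPM against 4.02 to 5.48 CPM (-0.10, 0.37). Prdm16, a regulator of beige fate, Ppargc1b and Ebf2 had log2 fold changes of 0.00, 0.00 and 0.02, and Zic1 and Bmp8b had too few counts to be tested.

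**Figure D3:**
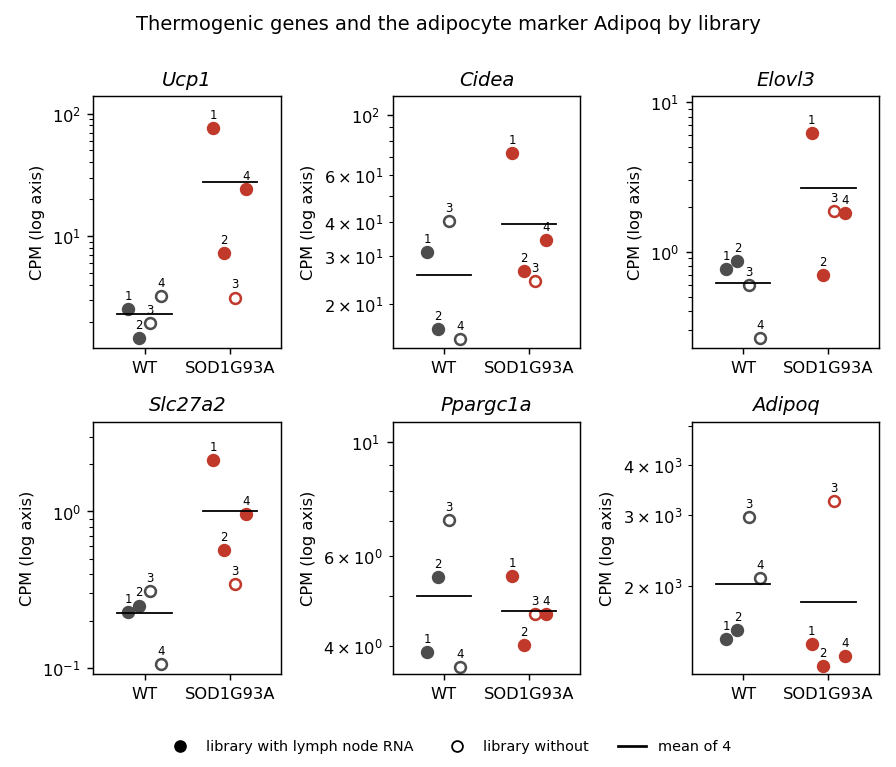
CPM on log axes (y) of 5 thermogenic genes and of Adipoq in the 4 WT and 4 SOD1G93A libraries, numbered by replicate, with filled points for libraries with lymph node RNA and a line at the mean of 4. Ucp1 is at 75.6 CPM in SOD1G93A replicate 1 and at 3.16 CPM in SOD1G93A replicate 3, while Ppargc1a overlaps throughout.

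Oxidative phosphorylation genes of the nucleus, which encode most subunits of the respiratory chain, had small log2 fold changes within a narrow range. Their mean log2 CPM varied between libraries, from 6.95 to 7.72 in WT and from 7.08 to 7.57 in SOD1G93A. Of 40 genes 33 were below 0, the median was -0.06 and the range was -0.21 to 0.22. The count turned without WT replicate 3, where 36 of 40 were above 0 (median 0.09), and with a factor for lymph node RNA, where 27 were. Cox4i1, a subunit of cytochrome c oxidase, lay at 312 to 449 CPM in WT and at 273 to 378 CPM in SOD1G93A (log2 fold change -0.15, standard error 0.15). In the creatine and calcium cycling list, another route of heat production, 3 of 9 genes were above 0 with a median of -0.14. Ckmt2, a mitochondrial creatine kinase also made in muscle, was detected only in WT replicate 3 (9.5 CPM) and SOD1G93A replicate 4 (1.75 CPM), which are among the 3 of the 8 libraries with the most muscle transcripts.

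Glucocorticoid and fasting response genes had the highest median of the lists plotted, 0.34, with 12 of 16 above 0. In 4 of them (25%, against 1.37% of all genes) the SOD1G93A libraries lay above all WT libraries: Ddit4, Tsc22d3, Sgk1 and Errfi1. Ddit4 (ENSMUSG00000020108, chr10:59949669-59951834 on GRCm38), an inhibitor of mTORC1 that stress and glucocorticoids induce, lay at 40.7, 29.5, 38 and 19.4 CPM in WT and at 64.9, 72.5, 61.7 and 90.5 CPM in SOD1G93A. Every SOD1G93A library was thus at least 61.7 CPM and every WT library at most 40.7 CPM. The log2 fold change was 1.18 with a standard error of 0.38 (edgeR, unadjusted p = 0.00785), and DESeq2 on the 8 libraries called it (adjusted p = 0.0343). The difference in mean log2 CPM was 1.12 in the libraries with lymph node RNA and 1.19 in those without, so it was as large in either set. Leaving out each library in turn gave 0.98 to 1.31. The study also lists Ddit4 as upregulated in the iWAT of Lepob/+ against WT, so a level above WT was not particular to SOD1G93A.

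Tsc22d3, which encodes the anti-inflammatory protein GILZ, lay at 87.2, 60.9, 89.2 and 84.6 CPM in WT and at 92.5, 183, 191 and 165 CPM in SOD1G93A (log2 fold change 0.97, standard error 0.46, unadjusted p = 0.0537). SOD1G93A replicate 1 was only just above WT, and the other 3 were well above it. Sgk1, a kinase of salt and glucose transport, lay at 37.3 to 64.1 CPM in WT and at 65.3 to 92.1 CPM in SOD1G93A (0.46, 0.42), a gap of about 1 CPM between the groups. Errfi1, a feedback inhibitor of the EGF receptor, lay at 43.3 to 51.9 CPM in WT and at 59, 57, 84.9 and 112 CPM in SOD1G93A (0.67, 0.43). Fkbp5, whose protein holds that hormone's receptor in a low-affinity state, overlapped between the groups, with 31.4, 32, 21 and 23.1 CPM in WT and 29.8, 57.8, 67.7 and 40.3 CPM in SOD1G93A (0.86, 0.37, unadjusted p = 0.0372).

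The rest of the glucocorticoid list was less even. Nr3c1, the glucocorticoid receptor, was level (log2 fold change 0.05, standard error 0.20), and the metallothionein genes Mt1 and Mt2 had log2 fold changes of -0.16 and 0.10. Zbtb16, a transcription factor, rested on 1 library, with 177 CPM in SOD1G93A replicate 3 against 32.1 to 39.4 CPM in the other 3 and 25.8 to 52.4 CPM in WT. Pdk4, which restrains pyruvate dehydrogenase, lay at 30.6 to 77.5 CPM in WT and at 132, 43.3, 54.5 and 71.7 CPM in SOD1G93A. Without SOD1G93A replicate 3 the median of the list was 0.07, and without SOD1G93A replicate 2 it was 0.48.

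**Figure D4:**
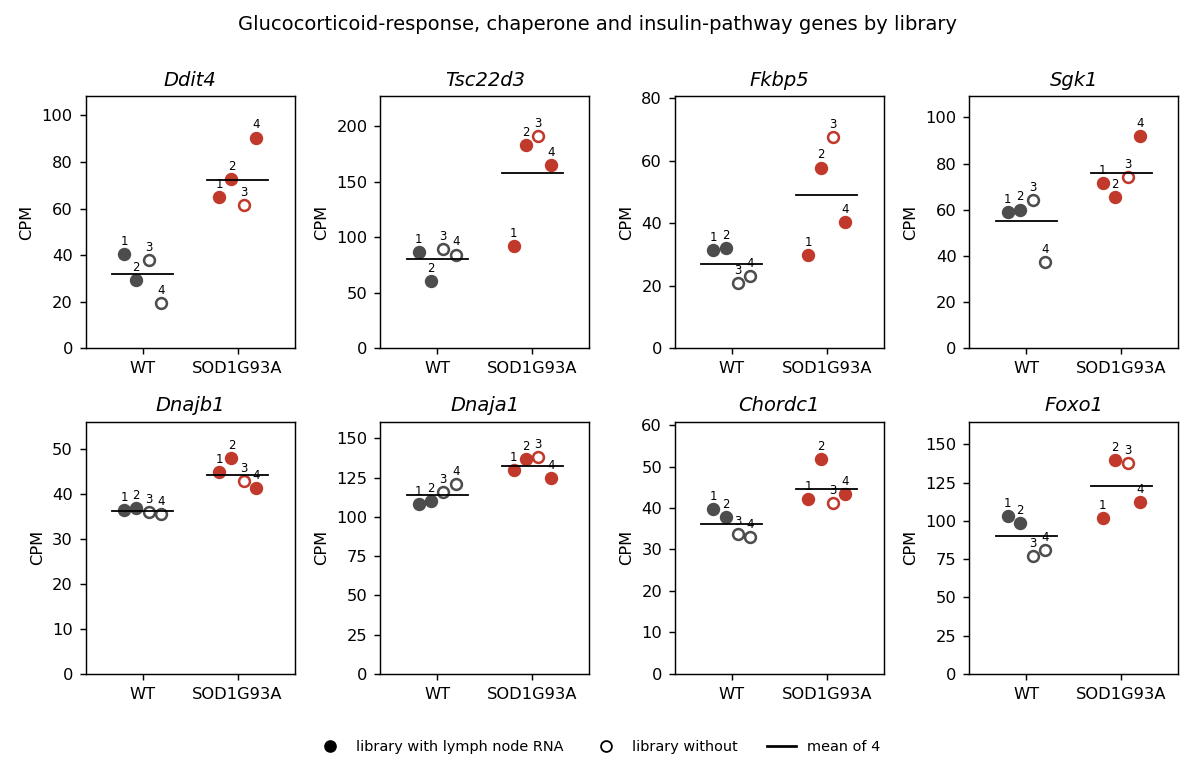
CPM (y axis, from 0) of 4 glucocorticoid-response genes, 3 heat shock chaperone genes and Foxo1 in the 4 WT and 4 SOD1G93A libraries, numbered by replicate, with filled points for libraries with lymph node RNA and a line at the mean of 4. The 4 SOD1G93A points lie above all WT points for Ddit4, Tsc22d3, Sgk1, Dnajb1, Dnaja1 and Chordc1, with a fitted difference of 1.17-fold for Dnaja1 and 2.27-fold for Ddit4.

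Among cytosolic heat shock genes, the chaperones that fold and disaggregate proteins under the factor Hsf1, the J-domain proteins Dnajb1 and Dnaja1 and the cochaperone Chordc1 lay higher in every SOD1G93A library than in any WT library. Of 23 genes 16 were above 0 and 7 below (median 0.12). Log2 fold changes ranged from -0.69 to 0.38, so the largest change of the list was a decrease. In 3 genes (13%, against 1.37% of all genes) the SOD1G93A libraries lay above all WT libraries. Dnajb1, an HSP70 partner that helps dissolve aggregates, lay at 36.4, 36.9, 36 and 35.5 CPM in WT and at 44.9, 48.1, 42.8 and 41.3 CPM in SOD1G93A. The WT values spanned 35.5 to 36.9 CPM, and each SOD1G93A value exceeded them (log2 fold change 0.29, standard error 0.11, unadjusted p = 0.0172). Dnaja1, another HSP70 partner, lay at 108, 110, 116 and 121 CPM in WT and at 130, 137, 138 and 125 CPM in SOD1G93A (0.23, 0.10, unadjusted p = 0.0411). Smu1, which overlaps the end of Dnaja1 on the other strand, lay at 62.2 to 70 CPM, and since the strand setting of the counting was not given, reads of the pair cannot be told apart. Their sum was 173 to 184 CPM in WT and 195 to 207 CPM in SOD1G93A, which do not overlap. Chordc1, a cochaperone of HSP90, lay at 33 to 39.7 CPM in WT and at 41.1 to 51.9 CPM in SOD1G93A (0.31, 0.21). The differences of Dnajb1 and Dnaja1 were alike with and without lymph node RNA, at 0.29 and 0.26 for the first and 0.27 and 0.22 for the second.

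Other members of the list did not separate the groups. Hspa1a, the inducible HSP70, lay at 19.6, 18.5, 11.7 and 18.5 CPM in WT and at 13.1, 10.4, 16.5 and 19.4 CPM in SOD1G93A (log2 fold change -0.20, standard error 0.20), and Hsf1 had a log2 fold change of 0.16 (0.25). The RefSeq promoter windows of GRCm38.p6, 250 bases before to 50 after each start, were searched for the letters GAANNTTC, the core of a heat shock element, which reads the same on either strand. Of 18 list genes with a window 11 held it (61.1%), against 9.04% of 27025 genes. The list was made of known heat shock genes, so this share describes the list and not a difference between the genotypes. A match in each of 2 of the genes above is shown with the motif in capitals, read 5′ to 3′ on the plus strand.

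Dnaja1, chr4:40722334-40722361: aaagcctctaGAAAATTCtacgaggctc
Chordc1, chr9:18292253-18292280: tgtgcaaccgGAACGTTCgggaaaattc

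The first match begins 124 bases and the second 4 bases before the start, so that the second runs across it. Chordc1 holds a further match, GAAAATTC, 6 bases after its start, which is the end of the stretch shown and was left in small letters. Hspa1a holds the motif too, 104 bases before its start, and Dnajb1 has none in its window. For the glucocorticoid list, the letters ACANNNTGT, the core of a palindromic receptor site and also its own reverse complement, were in 2 of 12 genes with a window (Mt1 and Sgk1), against 7.9% of all genes.

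The integrated stress response, through which Atf4 answers amino acid shortage and misfolding, was not higher in SOD1G93A. Of 18 genes 5 were above 0, with a median of -0.19. Atf4 lay at 149, 150, 172 and 148 CPM in WT and at 164, 181, 132 and 144 CPM in SOD1G93A (log2 fold change 0.01, standard error 0.32), and Ddit3, the gene of CHOP, at 16.2 to 22.6 CPM against 15.4 to 20.1 CPM (-0.21, 0.15). Ddit3 shares its end with Mars on the other strand, which lay at 48.4 to 60.2 CPM. With the adipocyte scale the log2 fold change of Ddit3 was 0.06, where the median of all genes was 0.26. Nupr1, a stress-induced nuclear protein, lay at 59, 61.1, 83.8 and 83.7 CPM in WT and at 56.6, 34.2, 70.8 and 39.9 CPM in SOD1G93A (-0.51, 0.27, unadjusted p = 0.0755). The median of the list was 0.00 with a factor for lymph node RNA and -0.02 without the 2 libraries with the most muscle transcripts (WT replicate 3 and Lepob/+ replicate 4), a fit chosen after seeing the data.

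The unfolded protein response of the endoplasmic reticulum had 7 of 19 genes above 0 and a median of -0.05. Hspa5, the chaperone BiP, lay at 293, 342, 206 and 372 CPM in WT and at 308, 347, 143 and 330 CPM in SOD1G93A, with replicate 3 lowest in either genotype. Xbp1, its transcription factor, lay at 288, 241, 234 and 185 CPM in WT and at 153, 163, 227 and 188 CPM in SOD1G93A (log2 fold change -0.37, standard error 0.20, unadjusted p = 0.0861). Antioxidant genes had 7 of 26 above 0 and a median of -0.08 (13 of 26 and 0.00 with a factor for lymph node RNA), with Nfe2l2, the master regulator NRF2, at 0.11 (0.16) and Gpx4, which repairs lipid peroxides, at -0.30 (0.23).

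Immediate early genes, which respond to stimuli within minutes, included a pair with an unadjusted p under 0.05, Fos and Egr1. Fos lay at 21.9, 21.1, 21.7 and 109 CPM in WT and at 17.2, 13.4, 23.7 and 20.5 CPM in SOD1G93A (log2 fold change -1.21, standard error 0.47, unadjusted p = 0.0217). WT replicate 4 alone was high, and the other 3 WT values lay within the SOD1G93A range. Egr1 lay at 63.4, 59.3, 98 and 145 CPM in WT and at 64.4, 69.7, 47.3 and 46.1 CPM in SOD1G93A (-0.68, 0.29, unadjusted p = 0.0308), again with WT replicate 4 highest. Without that library the log2 fold changes were -0.23 for Fos and -0.40 for Egr1. Ier3, a survival gene, was low but separated, at 8.78 to 10.4 CPM in WT and 7.45 to 8.46 CPM in SOD1G93A. It is 1 of 21 members (4.76%, against 0.684% of all genes). The list had 9 of 21 genes above 0 and a median of -0.04.

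Stromal genes lay mostly below 0 with all libraries in the fit, a direction that rested on WT replicate 4, and 0 of them passed the adjusted threshold. Progenitor and fibroblast genes had 7 of 22 above 0 (median -0.16) and collagen and matrix genes 6 of 33 (median -0.21). Without WT replicate 4 the progenitor list had 19 of 22 above 0 (median 0.26) and the collagen list 17 of 33 (0.01). With lymph node stroma as a covariate the medians were 0.10 and 0.03. Col1a1, the main fibrillar collagen chain, lay at 910, 1751, 1431 and 2812 CPM in WT and at 1070, 1069, 1847 and 1329 CPM in SOD1G93A (log2 fold change -0.38, standard error 0.39). Dpp4, a marker of early progenitors, lay at 56, 150, 51.4 and 274 CPM in WT and at 112, 145, 172 and 113 CPM in SOD1G93A (0.03, 0.57). WT replicate 4 held the highest value of either gene, and the WT range contained the whole SOD1G93A range. That library also had the highest summed macrophage level, 7027 CPM, whose part in these differences was not tested. In 27 of 33 collagen and matrix genes the fold change was below 0. Within both the libraries with lymph node RNA and those without, 8 were lower and 10 higher, against 18.9% lower and 29.8% higher over all genes.

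Integrins, the receptors of the matrix, held 1 member with a large difference. Itgav (ENSMUSG00000027087), the alpha V subunit, lay at 5.59, 35.2, 27 and 25.5 CPM in WT and at 5.12, 5.08, 3.09 and 7.53 CPM in SOD1G93A (log2 fold change -2.16, standard error 0.71, unadjusted p = 0.00862). WT replicate 1 lay within the SOD1G93A range, and the other 3 WT libraries, at 25.5 CPM or more, lay above all 4 SOD1G93A libraries. DESeq2 on the 8 libraries called Itgav (adjusted p = 0.0321). The 4 Lepob/+ libraries were at 3.9 to 4.74 CPM and SOD1G93A-Lepob/+ at 34.7, 4.72, 3.11 and 4.49 CPM, so that the high level was seen in 4 of the 16 libraries. Itgb1, the common beta partner, was level (-0.02, 0.20), Itga8 was separated below at 3.33 to 3.65 CPM against 2.57 to 3.24 CPM, and Itga10 above at 2.1 to 2.66 CPM against 2.69 to 3.75 CPM. Itga8 and Itga10 are each 1 of 16 members (6.25%), against 0.684% of all genes below and 1.37% above. A transcript that overlaps Itga10 on the same strand, Gm42957, lay at 0.661 to 3.26 CPM, so reads of the pair are uncertain.

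Vessel and nerve genes were mostly below 0 with all libraries in the fit, which single libraries and lymph node content also turned or reduced. Blood endothelium had 3 of 20 genes above 0 (median -0.14), mural cells 2 of 11 (-0.18) and Schwann cells and nerve 1 of 12 tested (-0.36), with Th and Dbh, the enzymes of noradrenaline synthesis in sympathetic nerves, too low to be tested. Endothelium had 15 of 20 above 0 (median 0.10) without WT replicate 3 and 14 of 20 (0.04) with a factor for lymph node RNA, and mural cells a median of -0.08 without WT replicate 3 and -0.04 without SOD1G93A replicate 2. The nerve list had a median of -0.09 without WT replicate 4, -0.13 without SOD1G93A replicate 2, -0.78 without SOD1G93A replicate 3, and 0.02 (7 of 12 above 0) with lymph node stroma as a covariate. Pecam1, an endothelial adhesion molecule, was at 155 to 201 CPM in WT and 178 to 225 CPM in SOD1G93A (log2 fold change 0.21, standard error 0.18). Sox10, the transcription factor of Schwann cells, lay at 24, 20.7, 17.3 and 16.6 CPM in WT and at 15, 7.81, 16.2 and 11.8 CPM in SOD1G93A, all below WT (-0.63, 0.34, unadjusted p = 0.0827). It is 1 of 12 members (8.33%, against 0.684% of all genes), and its difference was -1.0 with lymph node RNA and -0.07 without.

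Mammary epithelium, which runs through this pad in females, was lower in some SOD1G93A libraries. Of 17 genes tested 3 were above 0, the median was -0.36, and summed levels were 1744, 1500, 893 and 1106 CPM in WT and 1130, 649, 808 and 1376 CPM in SOD1G93A. The median was -0.14 without WT replicate 1, -0.18 without SOD1G93A replicate 2 and -0.50 without WT replicate 3. When each library was left out, log2 fold changes were -0.37 to -0.08 for Epcam, -0.87 to -0.51 for Cldn4 and -0.83 to -0.33 for Krt8. The milk genes Csn2 and Wap were too low to be tested. Aqp5, a water channel of ducts and glands, lay at 54.9, 29.8, 79.4 and 62.1 CPM in WT and at 15.3, 10.9, 11 and 75 CPM in SOD1G93A (log2 fold change -1.01, standard error 0.62). SOD1G93A replicates 1 to 3 lay below all WT libraries and replicate 4 near the top of their range. The study also lists Aqp5 as downregulated in the iWAT of Lepob/+ against WT.

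DESeq2, the tool of the study, called 14 of 22351 genes on the 8 libraries (0.0626%), 11 higher and 3 lower in SOD1G93A, and 0 of these were called by edgeR. They hold Ucp1, Ddit4 and Itgav, given above. Among the others with sizeable counts, Kmt5a, which monomethylates histone H4, lay at 33.3, 30.4, 57 and 48.2 CPM in WT and at 99, 90.2, 120 and 83.7 CPM in SOD1G93A (edgeR log2 fold change 1.22, standard error 0.46; DESeq2 adjusted p = 0.0096). Azin1, which protects ornithine decarboxylase from decay, lay at 31.4 to 40.1 CPM in WT and at 53.4 to 63.8 CPM in SOD1G93A (0.60, 0.17; 0.0489). The groups did not overlap for either gene.

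Znrf1, a ubiquitin ligase of nerve, lay at 10.7 to 17.2 CPM in WT and at 21.5, 55.4, 43.4 and 43.1 CPM in SOD1G93A (1.57, 0.47, with DESeq2 adjusted p = 0.0096). On the lower side Ptms, parathymosin, lay at 195, 204, 167 and 169 CPM in WT and at 121, 109, 136 and 119 CPM in SOD1G93A (-0.60, 0.20, with 0.0096). Tppp3, a tubulin-binding protein also found in progenitors, lay at 48.7, 55.2, 70.5 and 67.2 CPM in WT and at 39.1, 32.1, 36.5 and 33.9 CPM in SOD1G93A (-0.77, 0.20, with 0.0111). Ldhd, which overlaps Znrf1 on the other strand, lay at 34.3 to 61.8 CPM in WT and at 32.9 to 45.4 CPM in SOD1G93A, so reads of that pair are uncertain. Their sum was 79, 56.9, 62.7 and 45 CPM in WT and 66.9, 90.3, 76.3 and 80.1 CPM in SOD1G93A, which overlap. Ptms, Tppp3 and, by its own count, Znrf1 separated the groups, and the Lepob/+ and SOD1G93A-Lepob/+ libraries spanned 14 to 62.8 CPM for Znrf1 and 33.2 to 72.5 CPM for Tppp3.

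The remaining 6 calls were of low or overlapping transcripts. Disp2 and Yy2 lay at most at 0.646 and 0.433 CPM in WT and at least at 1.22 and 0.794 CPM in SOD1G93A, and the pseudogene Gm18537 at 0.465 to 1.48 CPM against 2.12 to 5.08 CPM. Yy2 lies inside Mbtps2 and Gm18537 inside Stambp, on the same strand, so their reads are uncertain. The immunoglobulin segment Igkv11-125 had 0 counts in WT and 73 in SOD1G93A, at least 21.4-fold higher, and the pseudogene Gm1848 0 and 139 counts, at least 40.7-fold higher, both against a floor of 3 counts over the group. Reads of both may be shared with similar sequences elsewhere.

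Gm45717 (chr7:140949222-140955937), another of the 14, shares its 3′ part with Ifitm2, an interferon-induced membrane protein, on the same strand. Gm45717 had 6, 12, 9 and 0 counts in WT and 16, 3425, 6641 and 4072 in SOD1G93A. Ifitm2 lay at 118, 166, 179 and 220 CPM in WT and at 128, 52, 76.7 and 59.7 CPM in SOD1G93A, lowest in the 3 libraries where Gm45717 was high. The sum of the pair was 118, 166, 179 and 220 CPM in WT and 129, 129, 191 and 154 CPM in SOD1G93A, so the groups overlapped once the 2 genes were added. DESeq2 on all 16 libraries called 3 other genes, Chrnd, Gm21983 and Methig1. Gm21983, at 13.2, 0, 7.31 and 7.09 CPM in WT and at 0 in all SOD1G93A libraries, overlaps Rab4b, whose sum with it was 26.1 to 30.3 CPM in WT and 28.1 to 42.6 CPM in SOD1G93A.

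Since 3 of 4 SOD1G93A libraries and 2 of 4 WT libraries held lymph node RNA, each list was also set side by side within those libraries and within the rest, where SOD1G93A has 1 library, and these differences were not tested. Over all genes 29.8% were higher and 18.9% lower in SOD1G93A in both sets. In the glucocorticoid list 10 of 16 genes were higher in both, with median differences of 0.28 with lymph node RNA and 0.62 without. In the heat shock list 15 of 23 were higher in both, with 0.16 and 0.10, and in the thermogenic list 12 of 23, with 0.20 and 0.15. Mature adipocyte genes differed by a median of -0.27 with lymph node RNA and of 0.18 without, and 3 of 20 were higher and 4 lower in both. Immediate early genes had 0.22 and -0.46. T cell genes had 0.35 and -0.92.

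**Figure D5:**
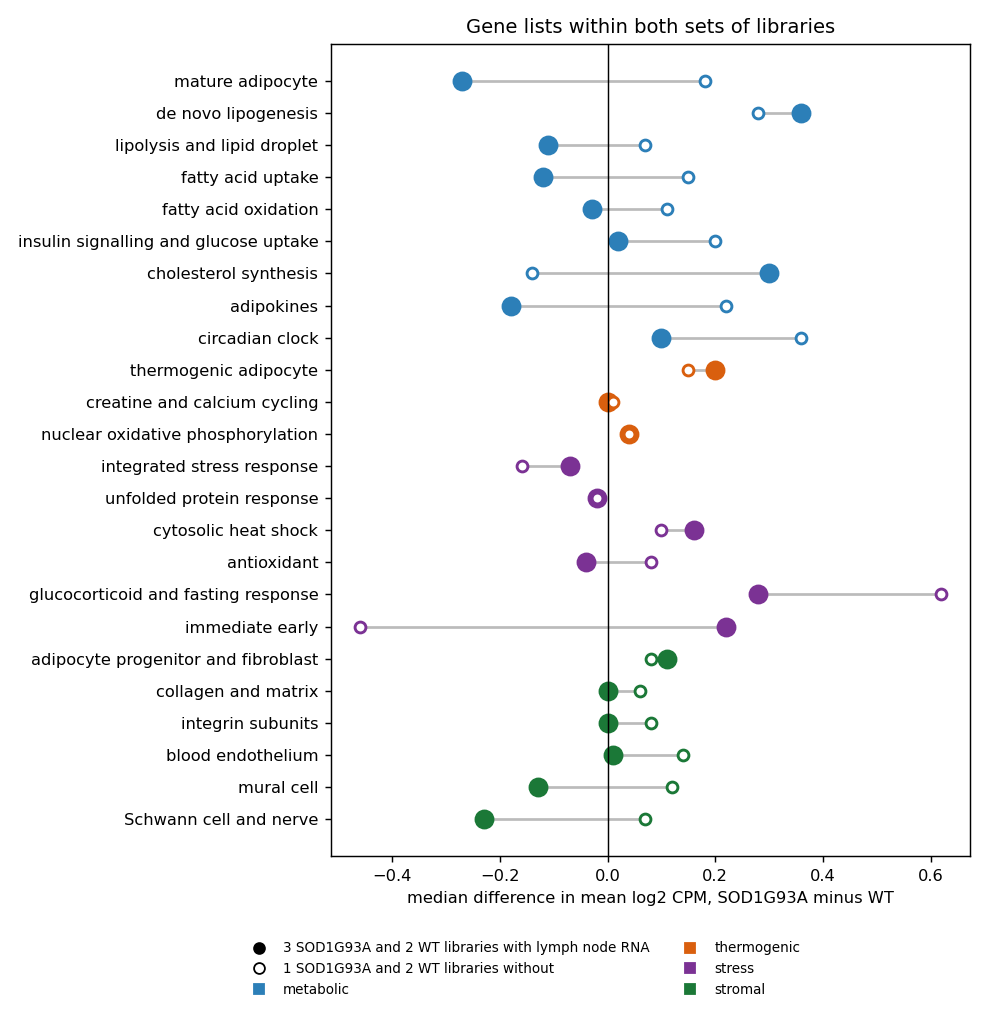
Median over each list (y axis) of the difference in mean log2 CPM between SOD1G93A and WT (x axis), for libraries with lymph node RNA (filled, 3 against 2) and without (open, 1 against 2), coloured by theme. The points of the glucocorticoid list lie above 0 in both sets at 0.28 and 0.62, whereas those of the mature adipocyte list lie on either side of 0 at -0.27 and 0.18.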

How the data were processed

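RNA-seq of inguinal fat from 16 mice was analysed, 4 per genotype. Per the submitters' processing notes, reads were aligned to mm10 with HISAT2 2.1.0 and counted with featureCounts 2.0.2, and the authors deposited raw counts per gene with replicates kept apart; the strand setting was not given in the sources used here. The kit is named differently in the labels and in the study's methods. Counts were scaled by TMM and filtered by edgeR's filterByExpr (minimum count 10, total 15), which left 19736 genes. The main test was edgeR 4.0.16 (R 4.3.3), quasi-likelihood with robust dispersion and a prior count of 1, on genotype over the 16 libraries, with Benjamini-Hochberg adjustment at 0.05. It was also run on simulated counts with known fold changes. These held no differences in lymph node or muscle content between libraries, so that run cannot show how the test behaves with such differences. Alternatives used DESeq2 1.42.0, limma 3.58.1, other scalings and filters, and terms for lymph node RNA. CPM are counts relative to the TMM-scaled library total. P-values set a difference against the spread between libraries, which the main test estimated from all 16.

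The gene lists, their members and the comparison were chosen with earlier results of these data known. Genes were named by rule: preset anchor genes of each list, up to 2 others with the smallest p, and genes called by edgeR or by DESeq2 on the 8 libraries. Chordc1, Sgk1, Nr3c1, Zbtb16, Pdk4, Mt1, Mt2, Prdm16, Ppargc1b, Ebf2, Gm21983, Chrnd, Methig1 and the genes of the closing section named outside the lists were chosen after their values were seen. Promoter sequence is from RefSeq (GRCm38.p6).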

Additional observations from a re-analysis of the deposited data

Results flagged for a closer look

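In 23 of 284 groups of 4 libraries, over 7 lists and 15 genes, 1 library stood apart from the other 3 by Dixon's criterion, a criterion that chance meets in about 1 of 20 groups.

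SOD1G93A replicate 3 stood apart most often. Its mean log2 CPM was -0.32 for T cell genes against 5.74 to 6.52 in the other 3, -0.06 for B cell genes against 6.4 to 7.41, and -2.32 for lymph node stroma against 4.06 to 4.8. Its insulin signalling genes were at 6.51 against 6.26 to 6.28. It was also high for Adipoq (3262 CPM against 1262 to 1428), Lpl (9326 against 3623 to 3890), the clock output gene Dbp (218 against 96.1 to 109), Sel1l, of protein degradation at the endoplasmic reticulum (148 against 54.3 to 61.4), the mural cell receptor Pdgfrb (154 against 103 to 110) and Azin1 (63.8 against 53.4 to 54.5). It was low for Hspa5, at 143 CPM against 308 to 347.

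WT replicate 3 stood apart for skeletal muscle genes, at 6.85 against -1.38 to -0.51 in the other WT libraries, and for mural cell genes, at 6.15 against 5.57 to 5.62. Its Rgs5, a pericyte gene, was at 396 CPM against 217 to 226, its Atf4 at 172 against 148 to 150, its Hspa1a at 11.7 against 18.5 to 19.6, and its Ckmt2 at 9.5 against 0. WT replicate 4 had immediate early genes at 5.18 against 4.79 to 4.86, with Fos at 109 CPM against 21.1 to 21.9, and Cidec at 1392 against 1908 to 2009.

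Tsc22d3 was at 60.9 CPM in WT replicate 2 against 84.6 to 89.2. Ckmt2 was at 1.75 CPM in SOD1G93A replicate 4 against 0. Gm45717 was at 0.341 CPM in SOD1G93A replicate 1 against 77.4 to 115 in the other 3.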

How the results depend on the processing

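In edgeR 0 genes were called under every alternative run except without SOD1G93A replicate 4 (0 to 1 when each library was left out), where the call was Mbtd1 (log2 fold change -1.65, adjusted p = 0.0218). limma voom called 0. DESeq2 called 14 on the 8 libraries and 3 on all 16. At an unadjusted p under 0.05 the 505 genes became 210 with the adipocyte scale, 777 with no filter, 1768 with limma voom, and 217 to 1541 when each library was left out, with 316 without WT replicate 3, 217 without SOD1G93A replicate 2, 1541 without SOD1G93A replicate 3 and 300 without SOD1G93A replicate 4. The 405 genes whose groups did not overlap became 145 with the adipocyte scale.

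With the adipocyte scale, list medians moved to 0.00 (lipolysis), 0.30 (insulin), 0.35 (cholesterol), 0.04 (integrated stress response), 0.19 (unfolded protein response), 0.37 (heat shock), 0.14 (antioxidant), 0.57 (glucocorticoid), 0.22 (immediate early) and 0.20 (integrins), where the median of all genes was 0.26. That scale also turned the sign of Ebp (0.12), Ddit3 (0.06), Manf (0.09), Eng (0.06) and Tagln (0.02). With lymph node stroma as a covariate the medians were -0.03 for lipolysis and -0.04 for the integrated stress response. Muscle, at -2.89 in the main fit, was at 2.25 with that covariate. A lymph node factor gave 0.00 for the integrated stress response and 2.42 for muscle, limma voom -0.27 and 1.42, and leaving out the 2 libraries with most muscle transcripts, chosen after seeing the data, -0.02 and 2.69.

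Leaving out each library gave medians of -0.36 to 0.01 for fatty acid uptake, -0.12 to 0.09 for insulin, -0.43 to -0.01 for the integrated stress response, 0.07 to 0.48 for the glucocorticoid list and -3.73 to 2.71 for muscle, the last without WT replicate 3. Lpl was at -0.44 without SOD1G93A replicate 3 and Ckmt2, detected in 2 libraries, at -6.68 to 4.29 over the libraries left out, the last without WT replicate 3. Other lists also changed sides. De novo lipogenesis (0.01 in the main fit) was at -0.24 without WT replicate 2 and -0.20 without SOD1G93A replicate 3. Cholesterol synthesis (0.04 in the main fit) was at -0.05 without WT replicate 2. Without WT replicate 4, immediate early genes (-0.04 in the main fit) were at 0.09. Macrophage genes (-0.35 in the main fit, 17 of 19 lower) were at 0.07 without that library. Creatine and calcium cycling (-0.14 in the main fit) was at 0.05 with lymph node stroma as a covariate. The cause of these shifts was not tested. Of 2323 values of named genes under the alternatives, 148 in 38 genes changed sign within 1 standard error in both fits.

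Same-numbered WT and SOD1G93A libraries correlated at 0.412, 0.407, 0.52 and -0.312 in their deviations, so the numbers were not taken to pair the mice. With a replicate block 0 genes were called and 385 had an unadjusted p under 0.05 (237 higher, 148 lower).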

Other observations

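Transcripts of red blood cells were lower in SOD1G93A, a list looked at after its values were seen. All 5 genes tested had a log2 fold change between -1.07 and -0.99, with a median of -1.06, and 0 passed the adjusted threshold. Their summed level was 1297, 1053, 1035 and 719 CPM in WT replicates 1 to 4 and 747, 317, 613 and 325 CPM in SOD1G93A replicates 1 to 4. SOD1G93A replicate 1 lay just above WT replicate 4, and the other 3 lay below all WT libraries. Alas2, which starts haem synthesis in red cells, had a log2 fold change of -1.06 (edgeR, unadjusted p = 0.0107). The median difference was -1.50 in libraries with lymph node RNA and -0.47 in those without. Reads of the near-identical globin genes (Hba-a1 and Hba-a2, Hbb-bs and Hbb-bt) are uncertain within each pair.

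A few genes outside the lists separated the groups and were chosen after their values were seen. Il6st, the gp130 subunit shared by receptors of the interleukin-6 family, lay at 125, 150, 105 and 89.5 CPM in WT and at 158, 196, 208 and 221 CPM in SOD1G93A (log2 fold change 0.74, standard error 0.20). Sp3, a zinc finger transcription factor, lay at 45.1, 49.6, 44.3 and 51 CPM in WT and at 56.9, 77.5, 56.9 and 67 CPM in SOD1G93A (0.44, 0.11). Nisch lay at 306, 319, 255 and 262 CPM in WT and at 215, 221, 220 and 211 CPM in SOD1G93A (-0.40, 0.12). Mbtd1 lay at 32.3, 31, 25.4 and 25.6 CPM in WT and at 8.74, 9.94, 8.91 and 36.8 CPM in SOD1G93A, where replicate 4 lay above WT and the other 3 below.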
